A study of Mus musculus with 12 samples.

Results

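The genes of the cytosolic ribosome were described on 12 Affymetrix MOE430 2.0 arrays of mouse bone marrow cells. A gene was a member when a probe set naming it alone carried the symbol Rpl or Rps followed by a number, or was Rpsa, Rplp0, Rplp2 or Fau. Ribosomal S6 kinases, pseudogenes and paralogues with a further number after an l (Rpl22l1, Rpl7l1) were left out. The rule found 48 genes with 102 probe sets, among 18194 genes and 45101 probe sets in all. Of the 48 genes, 45 had a log2 intensity above 4 on at least 3 arrays and were tested, 23 of the small and 22 of the large subunit. The other 3, Rpl3l, Rpl39l and Rps16, had signal under that floor on all arrays or all but 1. The probe set of Rps16 lay between 1.93 and 2.11 on the log2 scale on all 12 arrays, which says only that this probe set gave no signal.

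The cells were magnetically selected for B220, a B-lineage form of the surface protein CD45, from bone marrow of littermates aged 4 to 6 weeks on a 94% C57BL/6 background. The 4 groups of 3 arrays were wild type, Eµ-TTP-1 (here TTP), precancerous Eµ-Myc (here Myc), and precancerous mice carrying both transgenes (here Myc TTP). Eµ is the enhancer of the immunoglobulin heavy chain locus, which drives a transgene in the B lineage. TTP, tristetraprolin, is an RNA-binding protein that shortens the life of mRNAs with AU-rich elements, and MYC is a transcription factor that drives cell growth. The labels call the arrays of a group biological replicates, without saying whether an array held 1 animal or a pool.

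Ribosomal proteins bind ribosomal RNA in the nucleolus and form, with it, the small and large subunits of the ribosome. Their mRNAs are among the most abundant in growing cells, and most begin with a C and a run of pyrimidines, the 5′ terminal oligopyrimidine (TOP) tract, through which mTOR and LARP1 control their translation. MYC is known to raise ribosome production through ribosomal RNA synthesis, assembly factors and ribosomal protein genes, and ribosomal protein gene dosage limits B-cell tumour growth in Eµ-Myc mice. Free RPL5 and RPL11 bind MDM2 and so activate p53 when ribosome assembly is disturbed.

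The annotated start sites of members in RefSeq (build GRCm38.p6) were searched for a TOP-like tract. Promoters of 300 bases, 250 before and 50 after the annotated start, were found for 42 of the 48 members, 50 promoters in all. The windows below run from 15 bases before the start to 15 bases from the start onward, on the gene's own strand, with the first tract of a C and at least 4 further pyrimidines in capitals. They are shown because Rps6, Rpl14 and Rpl12 carried the larger differences between groups, and Rplp2 and Rpl35 have long tracts and bright probe sets. Rps28 and Rps3 are shown as members with no such tract in the window.
Rps6, chr4:86857353-86857382, minus strand: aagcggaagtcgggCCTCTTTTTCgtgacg
Rpl14, chr9:120571502-120571531, plus strand: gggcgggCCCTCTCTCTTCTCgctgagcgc
Rpl12, chr2:32961697-32961726, plus strand: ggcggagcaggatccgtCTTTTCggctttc
Rplp2, chr7:141447636-141447665, plus strand: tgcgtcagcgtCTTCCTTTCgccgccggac
Rpl35, chr2:39005117-39005146, minus strand: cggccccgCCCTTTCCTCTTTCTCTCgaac
Rps28, chr17:33824548-33824577, minus strand: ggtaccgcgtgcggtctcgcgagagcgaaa
Rps3, chr7:99483695-99483724, minus strand: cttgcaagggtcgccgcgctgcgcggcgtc

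A tract of this kind within 20 bases of the start was present in 72% of the 50 member promoters and in 47% of 10760 promoters of genes tested on the arrays. A C at the annotated start itself, followed by at least 4 pyrimidines, was present in 18% of member promoters (Fau, Rpl14, Rpl35, Rpl38, Rplp2, Rps10, Rps18, Rps27 and Rps6) and in 2.34% of promoters of tested genes. In Rpl14, Rpl35, Rplp2 and Rps6 the start lies inside a tract that begins before it, as the windows show. The letters CACGTG, the core E-box that MYC with MAX can bind, stood in 10% of member promoters on either strand and in 10.4% of promoters of tested genes. The members with this E-box were Rpl13a, Rpl14, Rpl19 and Rps19, and it is shown in capitals for the member with the larger differences between groups and for the one nearest to a start.
Rpl14 E-box, chr9:120571337-120571366, plus strand: ccaagctcactgCACGTGtctgaggagaag
Rpl19 E-box, chr11:98026679-98026708, plus strand: tacccagaggacCACGTGaccaaacgccct
Counted from the start, the E-box of Rpl14 began at base -168 and that of Rpl19 at base -19 from the nearest of its starts. The letters CCGGAAG, the core of ETS factor sites, stood in 42% of member promoters and in 18.7% of promoters of tested genes, on either strand. The letters AAGATGGC, the core of YY1 sites, stood in 8% and 4.83%, and TATAAA, the TATA box, in 10% and 7%. A match describes letters in a window and is neither a bound site nor a cause, and other starts of these genes were not searched.

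The deposited values are GCRMA intensities on a linear scale, analysed here as log2. The deposited GCRMA values do not share a common median between arrays. The median log2 intensity of the tested genes ran from 8.93 on TTP array 3 to 9.38 on Myc TTP array 1. Results with a common median or quantile normalization are therefore given as well. The values are relative, and the amount of RNA per cell was not measured. In sorted cell populations, fewer cells of a type and less RNA per cell cannot be told apart. The Myc probe set lay between 12.99 and 13.92 on the Myc arrays while Myc TTP arrays ran from 11.82 to 13.37. The values were 9.65 and 9.68 on wild-type arrays 1 and 2 and 10.05 and 10.39 on TTP arrays 1 and 2. It reached 12.65 on the array labelled wild type 3 and 13.47 on the array labelled TTP 3, inside or near the range of the Myc arrays, against what these labels lead a reader to look for. Results that turn on these arrays are therefore given with and without them. Granulocyte genes also moved with the groups: the log2 of the summed intensity of 15 tested markers was 17.89 to 18.37 on wild-type, 17.54 to 18.57 on TTP, 13.22, 14.59 and 17.79 on Myc and 16.76 to 17.36 on Myc TTP arrays. On Myc array 1, 7 of these 15 markers were at or under the floor. The probe set of Zfp36, the gene of TTP, lay between 9.78 and 9.89 on TTP, between 9.80 and 10.70 on wild-type and between 9.28 and 10.0 on Myc arrays. It was lowest on the Myc TTP arrays, at 7.47, 8.62 and 9.18, against the label of a TTP transgene, and whether it reads the transgene is not given in the sources used here. All 6 tested B-lineage markers were far above the floor on every array, with summed log2 intensities of 15.76 to 16.85, and 4 of the 6 were called lower in Myc over wild type. The summed log2 intensity of 12 erythroid markers was 14.45 to 15.03 on wild-type arrays and 13.68, 13.72 and 14.56 on Myc arrays. That sum leans on Tfrc, the brightest of the 12, which differed by -0.25 ± 0.12 in Myc over wild type. The median difference over the 12 was -3.27, with 1 called lower, and 6 and 5 of them were at or under the floor on Myc arrays 1 and 2. Called lower in Myc over wild type were also 5 of 6 genes listed as markers of plasmacytoid dendritic cells, which carry B220 themselves (median -1.50). So were 3 of 7 listed for monocytes (median -1.39) and 2 of 5 for NK cells (median -3.68). Whether each listed gene is read from its cell type alone was not tested. The part of these cells in the ribosomal protein values was not tested.

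Ribosomal protein probe sets were among the brightest of the arrays. Of the 45 tested members, 36 (80%) had a mean log2 intensity of 14 or more, against 1.58% of all 10287 tested genes. They also varied little: the median SD between arrays of a group, pooled over the 4 groups, was 0.09 for the members and 0.28 for all tested genes. Rplp0, a protein of the ribosomal stalk that recruits elongation factors, had the smallest spread of the tested members. It stood at 15.98, 15.94 and 16.03 on wild-type arrays 1 to 3, at 15.98, 15.98 and 15.93 on TTP arrays, at 15.91, 15.98 and 15.90 on Myc arrays, and at 16.06, 16.03 and 16.07 on Myc TTP arrays. Its Myc TTP values lay above those of all Myc and TTP arrays, by an amount that did not pass the test (0.12 ± 0.06 over Myc, adjusted p = 0.285). Rplp2, the stalk protein that binds Rplp0 as a dimer with Rplp1, lay between 16.22 and 16.45 on all 12 arrays, and its groups overlapped in every comparison.

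The members with wide spreads were those of lower intensity. Rpl14, a large-subunit protein, had an SD of 0.60 within groups, Rps4l (a paralogue of Rps4x) 0.57, Rpl12 (which sits at the base of the stalk) 0.47 and Rpl27a 0.39. Across the 12 arrays the median correlation between members was 0.40 and 75.3% of member pairs had a positive one. This is a description of arrays that share processing and, in part, cell composition. The 36 bright members of each array stayed close to their wild-type means, with medians from -0.06 on TTP array 1 to 0.22 on Myc TTP array 3. The 9 members under 14 (Rpl12, Rpl14, Rpl27a, Rpl37, Rpl39, Rps25, Rps27, Rps4l and Rps6) had medians of -0.20, -0.09 and 0.27 on wild-type arrays and -0.06, -0.03 and 0.38 on TTP arrays. These medians were 0.27, 0.23 and 0.32 on Myc arrays, and 0.78, 0.55 and 0.32 on Myc TTP arrays. The arrays labelled wild type 3 and TTP 3 thus lay beside the Myc arrays for this group. The division at 14 was chosen after the values were seen.

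**Figure D1:**
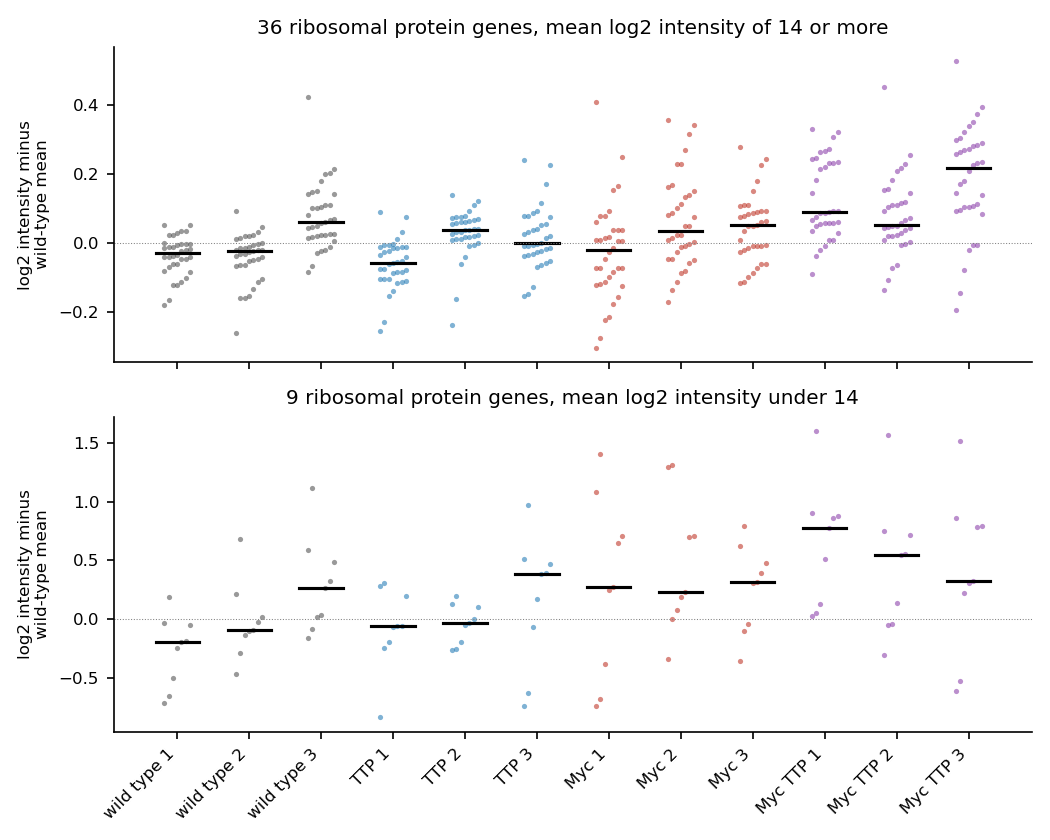
Log2 intensity minus the wild-type mean of each ribosomal protein gene (points) on each of the 12 arrays, for the 36 genes with a mean log2 intensity of 14 or more (top) and the 9 under 14 (bottom); bars are medians over the genes, and the axes differ in scale. The bright genes have medians between -0.06 and 0.22 on every array, and the 9 dimmer genes have medians of 0.23 or more on both arrays labelled wild type 3 and TTP 3 and on all Myc and Myc TTP arrays.

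With Myc alone, 1 ribosomal protein gene, Rps6, rose and none fell against wild type, while the other 44 tested members did not pass the test. Over all 10287 tested genes, 0.467% were called higher and 10.6% lower in this comparison, at an adjusted p under 0.05 by limma. The members' median difference was 0.03 on the log2 scale, beside -0.21 over all tested genes. By unadjusted p under 0.05, 3 members were higher and none lower, beside 7.99% and 33% of all tested genes. Of the members, 29 of 45 (64.4%) had a positive difference, and of all tested genes 34.5% did. Among the 163 tested genes with a mean of 14 or more, whatever their function, the median was -0.01, beside 0.03 for the 36 bright members. The 163 include these 36 members, so the medians are not independent. Of the 163, 48.5% had a positive difference and 13 were called lower, beside 63.9% and none of the 36. With each array centred on a common median of the tested genes, the median over all tested genes moved to 0.05 and that of the members to 0.29. In that setting 44 of 45 members had a positive difference, so the share of positive members depended on the scaling.

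Rps6, the small-subunit protein that S6 kinases phosphorylate downstream of mTOR, stood at 11.04, 11.09 and 11.54 on wild-type arrays 1 to 3 and at 11.17, 11.18 and 11.69 on TTP arrays. It reached 11.87, 11.93 and 11.70 on Myc arrays and 12.10, 11.94 and 12.08 on Myc TTP arrays. All Myc values lay above all wild-type values, and the array labelled wild type 3 was the highest of its group and the nearest to them. The rise in Myc over wild type was 0.61 ± 0.17 (SE), or 1.53-fold, with an adjusted p of 0.0479. Leaving out the array labelled wild type 1, wild type 2, TTP 1, Myc 1, Myc 2 or any Myc TTP array raised its adjusted p above the threshold, to between 0.0590 and 0.194, and the difference stayed between 0.52 and 0.61.

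Rpl12 stood at 8.82, 9.23 and 9.91 on wild-type arrays, 8.48, 9.06 and 9.83 on TTP arrays, 10.40, 10.63 and 9.94 on Myc arrays, and 10.22, 10.07 and 10.11 on Myc TTP arrays. Its Myc values lay above all wild-type values by a narrow margin, since Myc array 3 was low and the array labelled wild type 3 was high. The difference was 1.01 ± 0.34 (2.01-fold) and did not pass the test (adjusted p = 0.0650). Rpl14 stood at 8.36, 8.55 and 10.13 on wild-type arrays, 8.82, 8.98 and 9.99 on TTP arrays, 10.42, 10.31 and 9.81 on Myc arrays, and 10.62, 10.58 and 10.53 on Myc TTP arrays. Here Myc array 3 fell below the array labelled wild type 3, so that the groups overlapped, and the difference of 1.17 ± 0.43 (2.24-fold) did not pass the test (adjusted p = 0.0780). Rps25, a small-subunit protein used by some viral internal ribosome entry sites, stood at 10.04, 10.27 and 10.56 on wild-type arrays, 10.04, 10.09 and 10.67 on TTP arrays, 10.56, 10.99 and 10.60 on Myc arrays and 11.15, 10.84 and 11.07 on Myc TTP arrays. The lowest Myc value was just above the highest wild-type value, and the difference of 0.43 ± 0.20 had an adjusted p of 0.131.

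**Figure D2:**
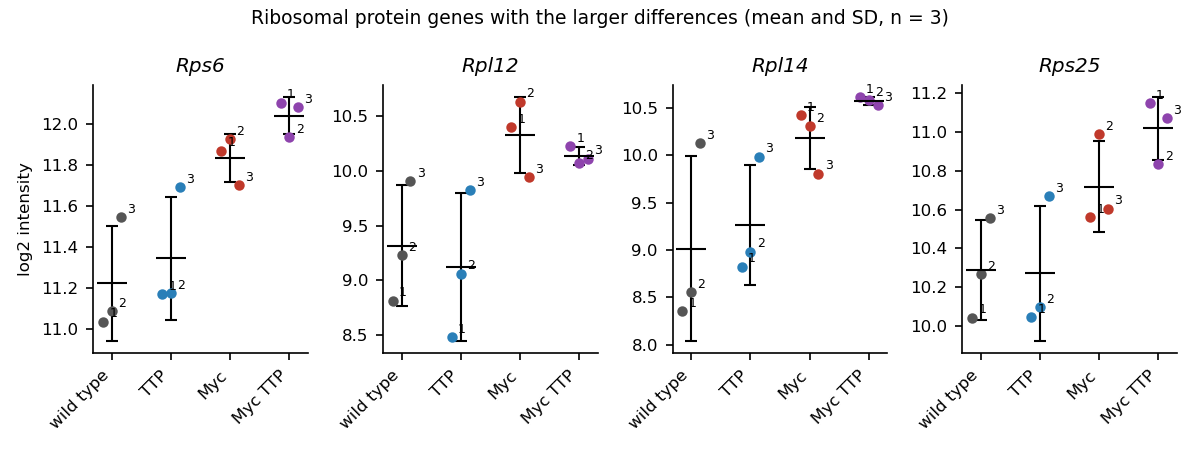
Log2 intensity of Rps6, Rpl12, Rpl14 and Rps25 on each array (points, numbered by replicate) with the mean and SD of each group (n = 3); the axes differ between panels and do not start at 0. In all 4 genes the arrays numbered 3 of the wild-type and TTP groups are the highest of their group, and 11.54 (Rps6) or 10.13 (Rpl14) on the array labelled wild type 3 compares with 11.04 to 11.09 and 8.36 to 8.55 on the other arrays of that group.

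Groups without overlap in Myc against wild type were found for 4 members above (Rps6, Rpl12, Rps25 and Rps2), or 8.89%, beside 3.49% of all tested genes. They were found for 6 members below (Fau, Rpl13a, Rpl37a, Rpl7, Rps20 and Rps24), or 13.3%, beside 41.3% of all tested genes. The members below differed by little. Fau, whose product is cleaved into a ubiquitin-like protein and the small-subunit protein eS30, stood at 15.29, 15.24 and 15.17 on wild-type and 14.96, 15.06 and 15.14 on Myc arrays. It differed by -0.18 ± 0.08 (adjusted p = 0.125), and Rps24 by -0.12 ± 0.07 (adjusted p = 0.203). Rpsa, which is both a small-subunit protein and a laminin receptor, differed by 0.18 ± 0.13 with overlapping groups (adjusted p = 0.288). Rpl11, the MDM2-binding protein, stood at 14.59, 14.48 and 14.84 on wild-type and 14.79, 14.86 and 14.79 on Myc arrays. Its difference was 0.18 ± 0.09 and did not pass the test (adjusted p = 0.161), with the array labelled wild type 3 inside the Myc range.

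In a setting chosen after the data were seen, which left out the array labelled wild type 3 and the array labelled TTP 3, 7 members were called higher in Myc over wild type and none lower. Those 7 were Rpl11 (0.28 ± 0.08), Rpl12 (1.30 ± 0.24), Rpl14 (1.73 ± 0.18), Rpl37 (0.66 ± 0.16), Rps25 (0.56 ± 0.16), Rps27l (0.54 ± 0.09) and Rps6 (0.77 ± 0.10), with adjusted p-values of 0.0163 or less. They were 15.6% of the members, and under the same setting 14% of all tested genes were called higher and 34.3% lower, so the members' share of rises was near that of all genes. Without all 4 arrays numbered 3, 9 members (20%) were called higher and 1, Fau, lower (-0.25 ± 0.09, adjusted p = 0.0416). Of all tested genes 18.4% were then called higher and 36.3% lower. Rps27l, a paralogue of Rps27 whose gene p53 can induce, stood at 13.79, 13.69 and 14.38 on wild-type and 14.36, 14.31 and 14.18 on Myc arrays. The array labelled wild type 3 was the highest of these 6, and with it the difference was 0.33 ± 0.16 (adjusted p = 0.134).

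In TTP over wild type no member was called, and no gene of the 10287 was (0%). The members' median difference was -0.01, beside -0.06 over all tested genes, and turned to 0.05 with each array centred on a common median. Of the members, 20 of 45 (44.4%) were positive, beside 36.4%. No member had an unadjusted p under 0.05, where 0.224% of all tested genes were higher and 1.22% lower by that measure. In no member did the groups fail to overlap, where 0.603% of all tested genes lay wholly above and 3.65% wholly below. The differences ran from -0.20 (Rps4l, ± 0.42) to 0.25 (Rpl14, ± 0.43). Among bright members, the differences farthest from 0 were Rps4x at -0.14 ± 0.11, Rps27l at 0.12 ± 0.16, Rps29 at 0.11 ± 0.08 and Rpl41 at -0.10 ± 0.08. Rps4x stood at 15.21, 15.25 and 15.30 on wild-type while TTP arrays 2 and 3 gave 15.02 and 15.33 and TTP array 1 lay just below array 2, so that 2 TTP arrays were low and the array labelled TTP 3 was the highest of the 6. With 3 arrays a group, a p that misses the threshold does not show that the levels are alike.

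In Myc TTP over Myc no member passed the test and no gene of the 10287 was called (0%). The members' median difference was 0.12, beside 0.27 over all tested genes, and 37 of 45 (82.2%) were positive, beside 85%. Values lay wholly above those of the Myc arrays for 13 members (28.9%) and wholly below for none, where 32.3% of all tested genes lay wholly above and 1.41% below. By unadjusted p under 0.05, 5 members were higher and none lower, beside 18.2% and 0.885% of all tested genes. The direction changed with the scaling of the arrays: after quantile normalization the members' median was 0.03, and after centring each array on a common median of the tested genes it was -0.15, with 3 of 45 positive. Rpl7a, a large-subunit protein, had the smallest p, with 15.01, 15.19 and 15.22 on Myc and 15.42, 15.24 and 15.46 on Myc TTP arrays. Its difference was 0.24 ± 0.09 (adjusted p = 0.207), and its lowest Myc TTP value was just above its highest Myc value. Rpl6 differed by 0.24 ± 0.10 and Rps15 by 0.22 ± 0.08, with adjusted p-values of 0.223 and 0.222. Rpl12 had the lowest difference of the members, -0.19 ± 0.34. Without the 4 arrays numbered 3, still no member was called, while 14.1% of all tested genes were called higher and 0.574% lower.

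In Myc TTP over TTP, again no gene was called at an adjusted p under 0.05, members included (0%). Of the members, 40 of 45 (88.9%) had a positive difference, beside 57% of all tested genes, with a median of 0.14 beside 0.09. Among the 163 tested genes with a mean of 14 or more, bright members included, 66.3% were positive with a median of 0.09. With each array centred on a common median, 34 of 45 members were positive. Their median was then 0.08, beside 0.03 over all tested genes. Values lay wholly above the TTP arrays for 17 members (37.8%, beside 30.6% of all tested genes) and wholly below for none (beside 5.36%). By unadjusted p under 0.05, 13 members were higher and none lower, beside 26.1% and 9.89% of all tested genes. Nearest to the threshold were Rps6 at 0.70 ± 0.17 (1.62-fold), Rps25 at 0.75 ± 0.20 (1.68-fold) and Rpl41 at 0.27 ± 0.08, each with an adjusted p of 0.0607. For Rps6 and Rps25 every Myc TTP array was above every TTP array, the array labelled TTP 3 being the nearest. Rpl14 was at 1.31 ± 0.43 (2.48-fold, adjusted p = 0.0712) and Rpl12 at 1.01 ± 0.34 (2.02-fold, adjusted p = 0.0753).

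Rpl41, whose product is a very short basic peptide of the large subunit, shows the size of these shifts in a bright probe set. It stood at 15.08, 15.02 and 15.16 on TTP and 15.32, 15.30 and 15.45 on Myc TTP arrays, without overlap. Rps15, a protein of the small subunit's head, stood at 15.29, 15.41 and 15.40 on TTP and 15.67, 15.62 and 15.69 on Myc TTP arrays, also without overlap (0.30 ± 0.08, adjusted p = 0.0610). With the arrays labelled wild type 3 and TTP 3 left out, 10 members were called higher and none lower: Rpl12, Rpl14, Rpl41, Rps15, Rps18, Rps25, Rps27l, Rps4x, Rps6 and Rpsa. They were 22.2% of the members, where 21% of all tested genes were called higher and 21.9% lower under that setting. Rpl14 was then at 1.67 ± 0.18 (adjusted p = 7.99e-04) and Rps6 at 0.87 ± 0.10 (adjusted p = 0.00105). Leaving out the array labelled wild type 3 alone gave 7 members and leaving out the one labelled TTP 3 alone gave 8, beside 16.7% and 18.5% of all tested genes called higher. Without all 4 arrays numbered 3, 10 members were called higher, again 22.2%, and 23.7% of all tested genes were, with 21.8% lower.

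The interaction, which asks whether TTP differences changed with the Myc transgene, had no called gene (0%). The members' median was 0.13, beside 0.34 over all tested genes, and 1 member, Rpl41, was higher by an unadjusted p under 0.05 (0.26 ± 0.11, adjusted p = 0.362), beside 12.8% of all tested genes higher and 0.369% lower. With each array centred on a common median, the members' median interaction was -0.19, so its direction changed with the scaling. Without the 4 arrays numbered 3, no member was called, beside 2.2% of all tested genes higher and 0.0875% lower. The comparisons share arrays with each other, so each one's values are given side by side only.

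Probe sets of the same ribosomal protein gene gave unlike values. Of 19 members with more than 1 tested probe set, 10 had probe sets of opposite sign in Myc over wild type, and the median span between a gene's probe sets was 0.47. In 13 of the 19 the probe set that represents the gene, the brightest, had the lowest signed difference among its gene's probe sets. Rps9, a small-subunit protein, was at -0.05 ± 0.07 by its brightest probe set (mean 14.64) and at 0.81 ± 0.24 by one with a mean of 9.55, in the fit over every probe set. That dimmer Rps9 probe set stood at 8.66, 8.99 and 9.50 on wild-type, 9.94, 10.09 and 9.54 on Myc, 9.0, 9.21 and 9.55 on TTP and 10.30, 9.90 and 9.95 on Myc TTP arrays. It separated Myc from wild type, yet did not pass the test (adjusted p = 0.0609). Rps3, a small-subunit protein at the mRNA entry channel, was at 0.23 ± 0.11 by its brightest probe set and at 0.79 ± 0.29 by a dimmer one. Rpl13a, a large-subunit protein also known for silencing inflammatory mRNAs, ran from -0.11 at a mean of 16.22 to 0.65 ± 0.28 at a mean of 12.98.

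Over all 93 tested single-symbol probe sets of members, the median difference in Myc over wild type fell with intensity. It was 0.40 for 10 probe sets with means from 4 to 8, 0.43 for 13 from 8 to 12, 0.40 for 7 from 12 to 14, 0.13 for 25 from 14 to 15, and -0.01 for 38 above 15. A further 104 tested probe sets list a ribosomal protein symbol among several and name no single gene. Their medians ran 0.37 for 8 probe sets from 4 to 8, 0.52 for 14 from 8 to 12, 0.08 for 3 from 12 to 14, 0.10 for 17 from 14 to 15 and 0.03 for 60 above 15. Among single-symbol probe sets the suffix went along with this: 23 probe sets with the plain suffix _at had a median of 0.43, 31 with _a_at or _s_at 0.05, and 39 with _x_at 0.05. Among those with a mean of 14 or more the medians were closer, at 0.08 for 6 with _at, 0.03 for 27 with _a_at or _s_at and 0.02 for 30 with _x_at. Affymetrix gives _x_at to probe sets with probes that also match other sequences, and ribosomal protein genes have many near-identical processed pseudogenes, so each member's value can include other transcripts. The highest intensity deposited was 120125, and whether the brightest probe sets were near the limit of the scanner was not tested.

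**Figure D3:**
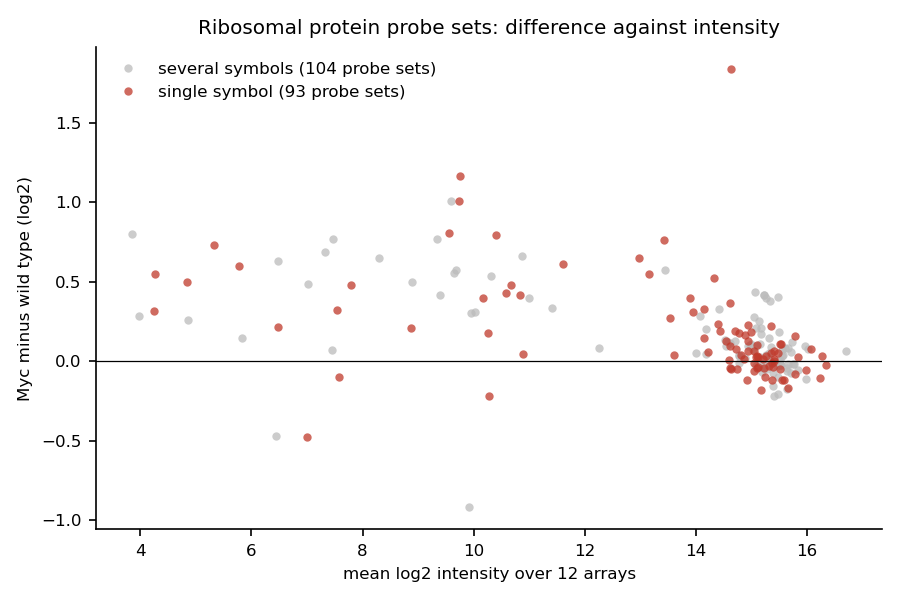
Log2 difference of Myc minus wild type (vertical) against mean log2 intensity over the 12 arrays (horizontal) for each tested ribosomal protein probe set, with 93 that name a single gene in red and 104 that list several in grey. Below 14 most points lie above 0, with medians of 0.40 to 0.43 for the red points, and above 15 they lie around 0 with a median of -0.01; the red point at 1.84 is a probe set of Rps28.

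Rps28 had the widest disagreement. Its brightest probe set, which represents it, lay between 14.96 and 15.16 on all 12 arrays and did not differ beyond its spread in Myc over wild type (0.02 ± 0.07). The next Rps28 probe set in brightness stood at 14.50, 14.30 and 14.29 on wild-type arrays and 16.11, 16.31 and 16.19 on Myc arrays, without overlap. On TTP arrays that Rps28 probe set gave 14.23, 12.19 and 16.23, and on Myc TTP arrays 12.66, 13.92 and 14.61, so that TTP array 3 sat with the Myc group and Myc TTP arrays did not. The difference of 1.84 ± 0.79 in Myc over wild type and that of -2.47 ± 0.79 in Myc TTP over Myc did not pass the test over all probe sets (adjusted p = 0.124 and 0.219). The last Rps28 probe set had a narrower range, from 14.08 on Myc TTP array 1 to 14.90 on TTP array 3, which are also a low and a high array of the variable one. Its 3 Myc values lay above its 3 wild-type values, by 0.19 ± 0.15 (adjusted p = 0.373). What the probes of the variable probe set match beside Rps28 was not tested.

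**Figure D4:**
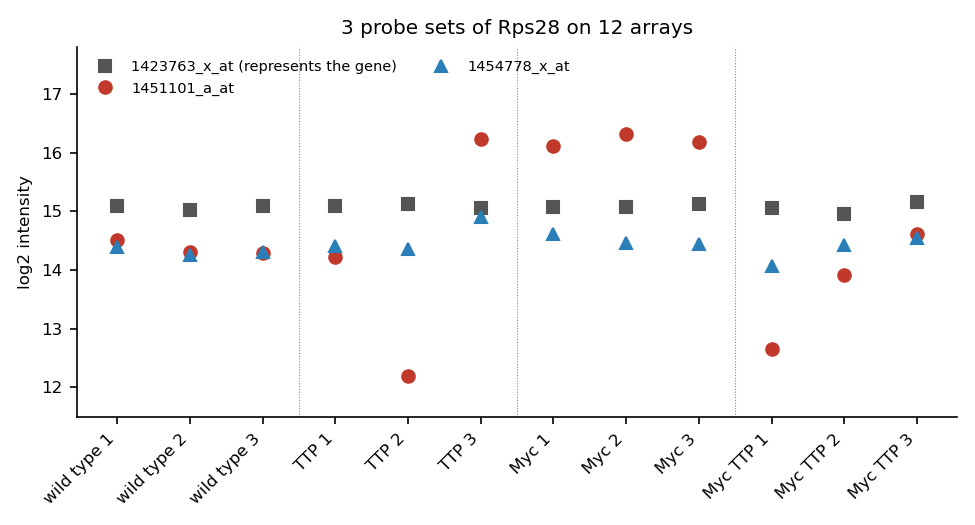
Log2 intensity of the 3 probe sets of Rps28 on each of the 12 arrays, with dotted lines between groups and an axis that does not start at 0. The probe set that represents the gene stays between 14.96 and 15.16, while the variable one (circles) runs from 12.19 on TTP array 2 to 16.31 on Myc array 2.

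Among paralogues outside the rule, Rpl22l1, a paralogue that can replace Rpl22 in the ribosome, rose in Myc over wild type by 0.41 ± 0.11 (adjusted p = 0.0479). It stood at 13.38, 13.20 and 13.55 on wild-type, 13.71, 13.79 and 13.86 on Myc, 13.50, 13.62 and 13.70 on TTP and 13.32, 13.61 and 13.55 on Myc TTP arrays, so that Myc and wild type did not overlap. As for Rps6, this call rests on the setting: no gene at all was called in Myc over wild type in 8 of the 12 fits that left out 1 array, with quantile normalization, with a common median or with the replicate number as a block. In Myc TTP over Myc it differed by -0.29 ± 0.11 (adjusted p = 0.223). Rpl22 itself was flat by its brightest probe set (0.05 ± 0.08, adjusted p = 0.648) and was at 0.52 ± 0.18 by another with a mean of 14.33. Rpl7l1 was at 0.10 ± 0.17. Of the members whose symbol ends in l, Rps4l ranged from 6.45 to 7.97 with overlapping groups and differed by -0.48 ± 0.42 in Myc over wild type, and Rpl3l and Rpl39l, known from muscle and testis, were at or near the floor.

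Assembly factors had larger median differences than the ribosomal proteins. All 40 tested assembly factors, which process ribosomal RNA and join proteins to it, had positive differences in Myc over wild type, with a median of 0.77. Of these 40, 1 was called higher: Heatr3, which carries Rpl5 and Rpl11 to their assembly, at 1.75 ± 0.46 (adjusted p = 0.0479). Next by p were Wdr12 at 1.25 ± 0.39 and Rrs1 at 0.95 ± 0.30, with adjusted p-values of 0.0553 and 0.0571. In Myc TTP over TTP the same list had a median of 1.01, all 40 positive, and Rrp12, at 1.48 ± 0.40, and Nob1, at 1.28 ± 0.36, had adjusted p-values of 0.0607. That value was the lowest of any tested gene in this comparison. Other assembly factors shared it, some with a smaller unadjusted p than Rrp12 and Nob1. Mitochondrial ribosomal proteins, 76 tested genes, had medians of 0.37 (72 positive) and 0.70 (75 positive) in these comparisons, with none called. TOP mRNAs of other translation proteins, 20 tested genes such as elongation and initiation factors, had medians of 0.08 and 0.27, with none called. They lay nearer to the ribosomal proteins, and the difference between lists was not tested.

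Of 17 tested regulators of ribosomal protein output, 2 fell in Myc over wild type and none rose. Mtor, the kinase that drives translation of TOP mRNAs, fell by 0.83 ± 0.18, and Rps6kb2, an S6 kinase, fell by 0.78 ± 0.19, both with an adjusted p of 0.0479. Larp1, the repressor that binds TOP tracts, was at 0.84 ± 0.31 (adjusted p = 0.0740), and Eif4ebp1, the mTOR target that holds back the cap-binding factor, was at 0.65 ± 0.21 (adjusted p = 0.0566). Of 7 tested genes of the ribosomal protein and p53 checkpoint, 1 fell and none rose: Mdm2, which ubiquitinates p53 and is bound by Rpl5 and Rpl11, fell by 0.98 ± 0.25 (adjusted p = 0.0479). Gnl3, a nucleolar GTPase also counted among the assembly factors, was at 1.16 ± 0.40 (adjusted p = 0.0656), and the p53 targets Pmaip1 and Cdkn1a were at 0.99 ± 0.35 and -0.86 ± 0.33 (adjusted p = 0.0694 and 0.0817). In this comparison 10.6% of all tested genes fell, 8 of 15 granulocyte markers among them, with a median of -4.44 over those markers. The calls of Heatr3, Mtor, Rps6kb2 and Mdm2 are lost, with all others, in the same settings as that of Rpl22l1. The part of the cell composition in these falls was not tested.

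**Figure D5:**
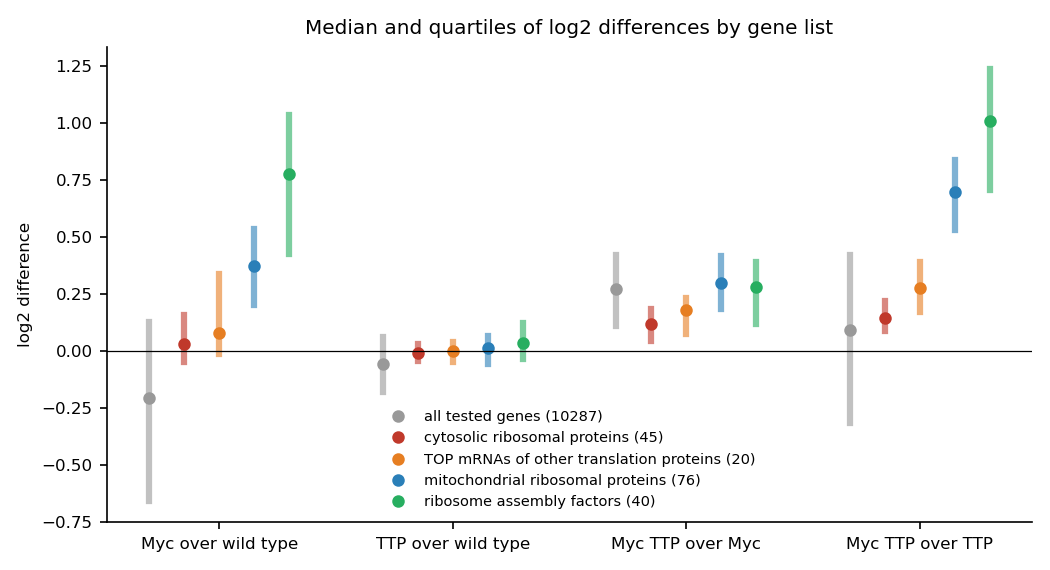
Median (points) and quartiles (bars) of the log2 differences of all 10287 tested genes, 45 cytosolic ribosomal proteins, 20 other TOP mRNAs, 76 mitochondrial ribosomal proteins and 40 assembly factors in 4 comparisons. Cytosolic ribosomal proteins have medians of 0.03 in Myc over wild type and 0.14 in Myc TTP over TTP, and assembly factors have medians of 0.77 and 1.01.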

How the data were processed

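Total RNA of 12 samples was measured on 1 array each. The authors deposited the values as intensity on a linear scale, summarised per probe set with GCRMA (version not given), per the submitters' processing notes. The values range from 1.73 to 120125, and array medians from 10.9 to 13.9. No header or label used here gives further upstream steps.

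From the deposited intensity, log2 was taken with no pseudocount. Of 45101 probe sets, 34958 had a single symbol, 932 several and 9211 none, and 34754 of the single-symbol ones were found in RefSeq's table. The brightest probe set on average stood for a gene, and 10287 genes passed the filter (log2 above 4 on at least 3 arrays). The test was limma's, version 3.58.1 under R 4.3.3 (lmFit, eBayes with an intensity trend; 4 group means, 8 residual degrees of freedom, two-sided, Benjamini-Hochberg over the 10287 genes, threshold 0.05), and every adjusted p is from limma. Errors beside differences are standard errors. The limma step was tested on simulated data with independent noise of a smaller spread than that observed. How it behaves with the shared deviations of these arrays was not tested. Precision is limited by having 3 arrays a group.

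The rule for named genes took members called in any comparison, the 4 smallest p in each direction of each comparison, the 4 widest and 2 narrowest spreads, the 3 genes whose probe sets disagreed most, fixed members (such as Rpsa, Fau, Rpl11 and the stalk proteins), paralogues, and from other lists the called genes and the 3 smallest p. The text gives part of these, and Rps2, Larp1, Cdkn1a, Rrp12, Nob1 and genes listed only in a count were added after their values were seen. The members and lists were chosen with earlier results of these data known.

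Same-numbered wild-type and TTP arrays had residual correlations of 0.498, 0.664 and 0.821, while in Myc against wild type they were -0.43, -0.28 and -0.63. The labels give no source of pairing. The alternatives tried changed the filter, probe set choice, normalization, variance moderation, threshold, replicate block and arrays included. Promoter tracts were searched on the gene's strand and other motifs on both.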

Additional observations from a re-analysis of the deposited data

How the results depend on the processing

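The count of ribosomal protein genes called in Myc over wild type, 1, became 0 with no intensity filter, with the probe set of the largest SD, with every probe set tested separately, with quantile normalization, with a common median, with no intensity trend, in an unmoderated model and at an adjusted p under 0.01. It remained 1 with a floor of log2 6. With a replicate block it was 0 (Rps6 adjusted p = 0.0637), and the pairing by number changed no other count of members. That block took all calls in Myc over wild type, 1135 genes, to 0, so that Rpl22l1, Heatr3, Mtor, Rps6kb2 and Mdm2 lost theirs too. Leaving out 1 array at a time gave counts from 0 to 6 in Myc over wild type, with 6 without wild type 3, 3 without TTP 3 and 2 without Myc 3. Without each of these arrays the share of all tested genes called higher rose as well, to a little below the members' share. It gave 0 to 8 in Myc TTP over TTP, with 7 without wild type 3 and 8 without TTP 3. In 2 settings added after looking at the data, leaving out wild type 3 with TTP 3 gave counts of 7 and 10, and leaving out the 4 arrays numbered 3 gave 10 and 10. In both settings the members' shares called higher were near those of all tested genes, as given in the Results. The probe set with the largest SD moved the members' median to 0.18 in Myc over wild type and 0.21 in Myc TTP over TTP. Quantile normalization moved it to 0.0331 in Myc TTP over Myc and 0.0313 in the interaction. A common median moved it to 0.29 in Myc over wild type, -0.15 in Myc TTP over Myc, 0.0783 in Myc TTP over TTP and -0.19 in the interaction. The median over all tested genes in Myc over wild type was -0.21, against 0.04 in the quantile setting and 0.05 in the setting with a common median. The other medians moved by less than the spread between arrays, and the cause of the changes was not tested. Limits are the few arrays, bright probe sets whose linearity is unknown, and probe sets shared with pseudogenes.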
